A study of Mus musculus with 14 samples.

Results

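The genes described here are 10 markers of choroid plexus epithelium, taken by symbol from the 46904 genes of the expression table. The rule uses no measured level, but the genes were chosen with earlier results of these data known. They are *Ttr*, *Folr1*, *Kl*, *Clic6*, *Kcnj13*, *Aqp1*, *Kcne2*, *Slc4a5*, *Sostdc1* and *Prlr*, and all 10 were found and passed the filter on low values. The study sequenced polyadenylated RNA from brain hemispheres of mice with an intact cortistatin gene (*Cort*+/+) and of mice lacking it (*Cort*-/-). Cortistatin is a neuropeptide made by cortical interneurons. All mice were males of the C57BL/6J background, aged 12 weeks, that underwent 20 min of middle cerebral artery occlusion (MCAO) by a filament passed through the left carotid, and brains were taken after 48 h. The groups are the contralateral hemisphere (CL) and the ischemic hemisphere (MCAO) of each genotype, with 3 *Cort*+/+ CL, 3 *Cort*+/+ MCAO, 3 *Cort*-/- CL and 5 *Cort*-/- MCAO libraries. The *Cort*+/+ MCAO libraries carry the numbers 2, 3 and 4, and replicates 1 and 5 of that group were not analysed here. The methods of the study state that replicates which did not group with the rest were left out of comparisons with large variability, and whether this touched the spread within the groups used here was not tested. CL tissue thus came from operated animals, no sham hemisphere was used here, and *Cort*-/- mice lack the gene in every cell. The labels do not say which CL and MCAO hemispheres came from the same mouse.

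The choroid plexus is a fold of epithelium over a vascular stroma that hangs in the brain ventricles. Its epithelial cells secrete most of the cerebrospinal fluid by moving ions and water across their apical membrane, and they release carrier proteins and hormones into it. It makes up a small part of a hemisphere, and genes that few other brain cells use therefore report how much of its RNA a hemisphere sample holds. In RNA from whole hemispheres, fewer epithelial cells and less RNA per cell cannot be told apart.

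The libraries held 25989673 to 43032291 reads on genes, recovered as whole numbers from the deposited RPKM values, in which reads are divided by a gene's length and a library's depth. *Cort* had 64 to 139 reads in each *Cort*+/+ library and 0 to 4 reads in each *Cort*-/- library, as labelled. All 10 choroid plexus genes were above 0 in all 14 libraries, with at least 47 reads each. The defining markers of the tissue were thus present in every hemisphere.

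The 10 genes lie on 8 chromosomes of GRCm39. *Folr1* is at chr7:101507537-101520014, *Kl* at chr5:150876072-150917284 and *Kcnj13* at chr1:87309135-87322456. *Aqp1* is at chr6:55313068-55325540, *Slc4a5* at chr6:83196810-83281927, *Sostdc1* at chr12:36364137-36368451 and *Prlr* at chr15:10177258-10349959. *Kcne2* (chr16:92089219-92095027) and *Clic6* (chr16:92282624-92338739) lie 188 kb apart on the same strand. *Kcnj13* lies inside *Gigyf2* on the opposite strand, and 669 exonic bases belong to both genes. *Prlr* shares 203 exonic bases with *Gm21973* on its own strand and 1058 with the antisense gene *Gm41269*. The library kit kept the strand of the RNA, but whether the counting used it is not given in the sources used here, so reads of these overlaps may have been divided between genes.

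Because the members varied together across libraries, as described below, the sequence before 3 of them is shown. The RefSeq promoter table (GRCm38.p6, 250 bases before to 50 after each start) held 6 of the 10 members in 9 windows, and had no entry for *Ttr*, *Folr1*, *Clic6* or *Sostdc1*. The windows were searched on both strands for TAATCC, the core motif of the factor OTX2, for TATAAA, the TATA box, and for GGGCGG, the GC box bound by SP factors. TAATCC was in 0 of the 9 windows against 7.1% of all 32851 windows. TATAAA was in 2 of 9 (*Kcnj13*, *Slc4a5*) against 13.6%, and GGGCGG in 4 of 9 (*Aqp1*, *Kcne2*, *Kl*, *Slc4a5*) against 35.7%. None of the 3 motifs was thus shared by all members with a window. The bases upstream of *Kl* (chr5:150875822-150876071, plus strand), *Kcne2* (chr16:92089027-92089218, plus strand) and *Kcnj13* (chr1:87322457-87322701, minus strand) are printed as matched to GRCm39, 5′ to 3′, without bases that GENCODE places inside the gene. Capitals mark GGGCGG or its reverse complement in *Kl* and *Kcne2*, and TATAAA in *Kcnj13*, which begins 29 bases before the RefSeq start.
Kl: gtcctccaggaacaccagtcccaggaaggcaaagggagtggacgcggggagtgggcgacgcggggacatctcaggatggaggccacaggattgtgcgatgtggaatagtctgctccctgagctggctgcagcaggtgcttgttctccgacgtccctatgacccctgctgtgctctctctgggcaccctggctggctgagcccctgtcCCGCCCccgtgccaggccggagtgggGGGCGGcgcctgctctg
Kcne2: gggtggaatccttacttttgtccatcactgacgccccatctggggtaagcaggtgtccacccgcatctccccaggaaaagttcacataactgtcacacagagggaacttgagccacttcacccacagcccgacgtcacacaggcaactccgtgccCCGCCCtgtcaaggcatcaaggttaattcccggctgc
Kcnj13: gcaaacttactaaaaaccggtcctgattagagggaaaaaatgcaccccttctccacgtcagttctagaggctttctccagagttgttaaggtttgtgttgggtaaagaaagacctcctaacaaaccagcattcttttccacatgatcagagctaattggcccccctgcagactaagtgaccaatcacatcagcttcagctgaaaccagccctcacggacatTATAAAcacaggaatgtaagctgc

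*Ttr* encodes transthyretin, the carrier of thyroid hormone and retinol that choroid plexus epithelium secretes in bulk, and lies at chr18:20797253-20807467. *Ttr* expression was 386, 431 and 286 RPKM in *Cort*+/+ CL replicates 1, 2 and 3, and 417, 304 and 380 RPKM in *Cort*+/+ MCAO replicates 2, 3 and 4. In *Cort*-/- mice it was 324, 407 and 329 RPKM in CL replicates 1 to 3 and 483, 349, 302, 411 and 290 RPKM in MCAO replicates 1 to 5. Each group therefore held both low and high libraries, and the 4 groups overlapped. Group means were 367 ± 73.9 RPKM (SD, n = 3) in *Cort*+/+ CL, 367 ± 57.5 (n = 3) in *Cort*+/+ MCAO, 354 ± 46.5 (n = 3) in *Cort*-/- CL and 367 ± 80.6 (n = 5) in *Cort*-/- MCAO. *Ttr* was the 49th to 121st most abundant gene of a library by RPKM, with 9455 to 24951 reads. Its level was on average 20.8 times the summed level of the 9 other members.

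The other members were far below *Ttr*. By mean RPKM over the 14 libraries the order was *Ttr* (364 RPKM), *Clic6* (3.93), *Kl* (3.73), *Kcnj13* (3.25), *Folr1* (1.86), *Kcne2* (1.31), *Sostdc1* (1.28), *Aqp1* (1.10), *Prlr* (0.780) and *Slc4a5* (0.660). The gap to the next gene exceeded the larger SD between libraries of that pair after *Ttr*, *Kcnj13* and *Folr1*, on the log2(RPKM + 0.1) scale. Within *Clic6*, *Kl* and *Kcnj13*, and from *Kcne2* down to *Slc4a5*, neighbours differed by less than that spread.

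**Figure D1:**
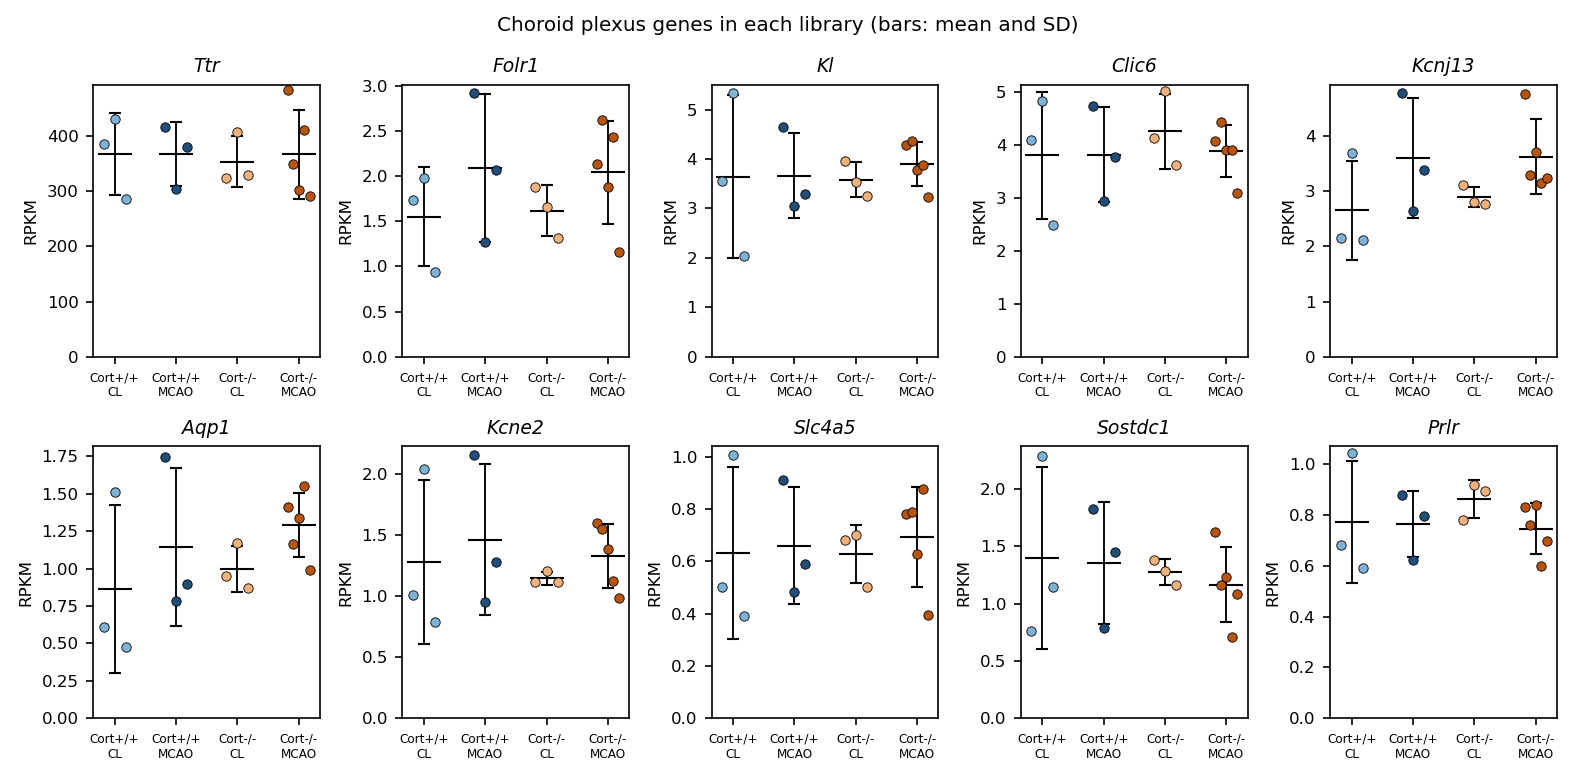
RPKM (linear axes from 0) of the 10 choroid plexus genes in each of the 14 libraries, by genotype and hemisphere, with 1 point per library and bars for the group mean and SD. The groups overlap for each gene except *Kcnj13* in *Cort*-/- mice, where CL libraries reached 3.11 RPKM and MCAO libraries began at 3.15 RPKM.

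*Folr1* encodes the folate receptor that carries folate across the epithelium into the cerebrospinal fluid. *Folr1* was at 1.73, 1.98 and 0.936 RPKM in *Cort*+/+ CL replicates 1 to 3, and at 2.91, 1.28 and 2.07 RPKM in MCAO replicates 2 to 4. The *Cort*-/- libraries were at 1.88, 1.66 and 1.31 RPKM in CL and at 2.13, 2.62, 1.87, 2.43 and 1.16 RPKM in MCAO replicates 1 to 5. The lowest CL and MCAO libraries and the higher ones overlapped in both genotypes, and the 3.11-fold range ran from *Cort*+/+ CL replicate 3 to *Cort*+/+ MCAO replicate 2.

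The channels and transporters come next. *Kcnj13* encodes the inward rectifier potassium channel Kir7.1 of the apical membrane. *Kcnj13* expression was 2.15, 3.69 and 2.11 RPKM in *Cort*+/+ CL replicates 1 to 3 and 4.77, 2.64 and 3.38 RPKM in *Cort*+/+ MCAO replicates 2 to 4. The *Cort*-/- libraries had 3.11, 2.79 and 2.77 RPKM in CL and 4.76, 3.28, 3.69, 3.15 and 3.22 RPKM in MCAO replicates 1 to 5. The *Cort*-/- groups did not overlap for this gene, which held for 1 of 10 members and for 9.11% of all genes tested in that comparison, whereas the *Cort*+/+ groups did. For 0 of 10 members were MCAO and CL separated in *Cort*+/+ mice (9.84% of all genes), or the genotypes in CL (6.25%) or MCAO hemispheres (2.42%).

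*Aqp1* encodes the water channel of the apical membrane, which red blood cells also carry. *Aqp1* was at 0.608, 1.51 and 0.479 RPKM in *Cort*+/+ CL replicates 1 to 3 and at 1.75, 0.783 and 0.898 RPKM in *Cort*+/+ MCAO replicates 2 to 4. For *Cort*-/- mice the values were 0.950, 1.17 and 0.870 RPKM in CL and 1.41, 1.17, 1.34, 1.55 and 0.993 RPKM in MCAO replicates 1 to 5. The groups overlapped, with the 2 lowest values in *Cort*+/+ CL replicates 1 and 3. The summed level of 5 red blood cell genes (led by *Hbb-bs* and *Hba-a1*) was 330 and 247 RPKM in those libraries, against a highest value of 257 RPKM in the 12 others. In *Cort*+/+ MCAO replicate 4, with those 257 RPKM, *Aqp1* was at 0.898 RPKM. The part of red blood cells in the *Aqp1* level was not tested.

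*Kcne2* encodes a small accessory subunit of potassium channels. *Kcne2* was at 1.01, 2.05 and 0.789 RPKM in *Cort*+/+ CL replicates 1 to 3 and at 2.16, 0.957 and 1.28 RPKM in *Cort*+/+ MCAO replicates 2 to 4. Among *Cort*-/- libraries it ranged from 1.12 to 1.21 RPKM in CL and from 0.989 to 1.60 RPKM in MCAO, with a median of 1.39 RPKM. The 3 *Cort*-/- CL libraries lay close together and inside the range of every other group.

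*Clic6* encodes a member of the chloride intracellular channel family. *Clic6* ranged from 2.48 to 4.82 RPKM in *Cort*+/+ CL, from 2.94 to 4.73 RPKM in *Cort*+/+ MCAO, from 3.62 to 5.01 RPKM in *Cort*-/- CL and from 3.08 to 4.42 RPKM in *Cort*-/- MCAO. *Slc4a5*, which encodes a sodium bicarbonate cotransporter, had group means of 0.633 ± 0.328 (SD, n = 3), 0.661 ± 0.224 (n = 3), 0.628 ± 0.111 (n = 3) and 0.694 ± 0.190 RPKM (n = 5) in the same order. For both transport genes the group means lay closer together than the libraries of *Cort*+/+ mice.

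The last 3 members act in signalling. *Kl* encodes klotho, a coreceptor for fibroblast growth factor 23 that is also shed into the cerebrospinal fluid. *Kl* was at 3.55, 5.34 and 2.04 RPKM in *Cort*+/+ CL replicates 1 to 3, and from 3.06 to 4.64 RPKM in *Cort*+/+ MCAO. Its *Cort*-/- values ranged from 3.26 to 3.96 RPKM in CL and from 3.24 to 4.36 RPKM in MCAO. The highest and the lowest *Kl* libraries of the whole set were thus both *Cort*+/+ CL.

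*Prlr* encodes the prolactin receptor, which hypothalamic neurons also express. *Prlr* ranged from 0.592 to 1.04 RPKM in *Cort*+/+ CL and from 0.622 to 0.877 RPKM in *Cort*+/+ MCAO, and its means in *Cort*-/- mice were 0.863 ± 0.074 (SD, n = 3) in CL and 0.745 ± 0.101 RPKM (n = 5) in MCAO. *Sostdc1* encodes a secreted antagonist of BMP and Wnt ligands. *Sostdc1* was at 0.758, 2.29 and 1.14 RPKM in *Cort*+/+ CL replicates 1 to 3 and at 1.83, 0.784 and 1.45 RPKM in *Cort*+/+ MCAO replicates 2 to 4. The *Cort*-/- values were 1.38, 1.28 and 1.16 RPKM in CL and 1.63, 1.16, 1.23, 0.713 and 1.08 RPKM in MCAO replicates 1 to 5. Both extremes of *Sostdc1* were single libraries, and the groups overlapped.

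Hemispheres differed in choroid plexus RNA more within groups than between them. The mean deviation of the 10 genes from their own means on the log2(RPKM + 0.1) scale was taken as a score of each library. It ran from -0.58 in *Cort*+/+ CL replicate 3 to 0.47 in *Cort*+/+ MCAO replicate 2, a 2.07-fold range. The group means were -0.13 ± 0.52 (SD, n = 3) in *Cort*+/+ CL, 0.05 ± 0.41 (n = 3) in *Cort*+/+ MCAO, -0.02 ± 0.12 (n = 3) in *Cort*-/- CL and 0.06 ± 0.21 (n = 5) in *Cort*-/- MCAO. They spanned a 1.14-fold range, or 0.19 on the log2 scale, against a pooled SD within groups of 0.33.

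*Cort*+/+ CL replicate 3 was the lowest library for 9 of the 10 members. *Cort*+/+ CL replicate 2 and *Cort*+/+ MCAO replicate 2 each held the highest value of 4 members. In these 2 libraries and in *Cort*-/- MCAO replicate 1 all 10 members were above their median over the libraries, and in *Cort*+/+ CL replicate 3 and *Cort*+/+ MCAO replicate 3 none was. The score did not rest on *Ttr*: without it the lowest and highest libraries stood at 0.657 and 1.41 times the mean, against 0.670 and 1.38 times with it. The *Cort*-/- libraries, in contrast, stayed between 0.836 and 1.23 times the mean. Whether the spread differed between genotypes was not tested.

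**Figure D2:**
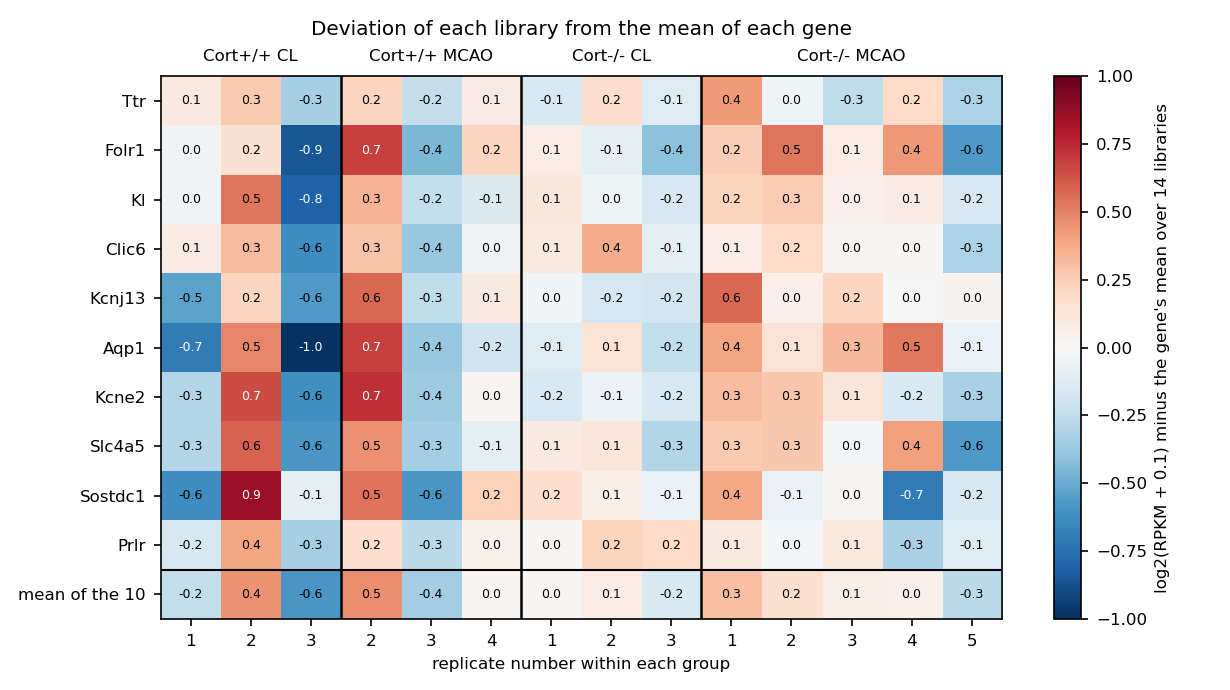
Deviation of log2(RPKM + 0.1) of each gene in each library from that gene's mean over 14 libraries (red above, blue below), with the mean of the 10 genes in the last row. All members lay on 1 side of their means in 5 libraries, among them *Cort*+/+ CL replicate 3 (mean -0.58) and *Cort*+/+ MCAO replicate 2 (mean 0.47), and on both sides in the 9 others.

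The SD of the members within groups was 0.23 (*Prlr*) to 0.49 (*Sostdc1*) on the log2 scale, with a median of 0.39. For all 10 it was above the median SD of 0.13 over the 17476 genes that averaged 0.5 RPKM or more. Those genes were not matched to the members in level. Within groups, the variance of the members' reads was 8.70 (*Kcnj13*) to 581 (*Ttr*) times what counting alone gives. Across the 14 libraries, which the points share, the members varied alike, with a positive Pearson r for 45 of 45 pairs and a median r of 0.72. The closest pair was *Folr1* and *Slc4a5* (r = 0.87) and the most distant *Folr1* and *Sostdc1* (r = 0.31). *Kcne2* followed the mean of the 9 other members most closely (r = 0.95), and *Prlr* (r = 0.69) and *Sostdc1* (r = 0.60) least.

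In *Cort*-/- MCAO replicate 4, *Aqp1* stood 0.52 and *Folr1* 0.43 above their means on the log2 scale, whereas *Sostdc1* was 0.70 below its mean and the lowest of the 14 libraries. *Prlr* was at 0.597 RPKM there, its second lowest value. The same library was low in 7 hypothalamus markers, whose sum was 29.6 RPKM against 43.3 in *Cort*+/+ CL replicate 3 and 68.1 to 120.0 in the 12 others. *Oxt*, which encodes oxytocin and was chosen from the list after its values were seen, was at 2.10 RPKM in *Cort*-/- MCAO replicate 4 and at 2.74 RPKM in *Cort*+/+ CL replicate 3, against 8.99 to 29.8 RPKM elsewhere. Of these 2 libraries, *Cort*+/+ CL replicate 3 was thus the lowest for 9 members and *Cort*-/- MCAO replicate 4 for *Sostdc1*. Libraries with more hypothalamic RNA also held extremes. *Cort*+/+ CL replicate 2 and *Cort*+/+ MCAO replicate 2, at 79.7 and 82.8 RPKM of hypothalamus markers, were each the highest for 4 members. The part of the hypothalamic share in these levels was not tested.

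The first comparison asks whether choroid plexus RNA follows ischemia, and no member passed the test in it. Over both genotypes, MCAO and CL hemispheres differed by a median of 0.10 on the log2(RPKM + 0.1) scale over the 10 genes. The median was 0.00 over all tested genes and -0.02 over those that averaged 0.5 RPKM or more. The members' median was 0.27 without *Cort*+/+ CL replicate 2 and -0.04 without *Cort*+/+ CL replicate 3, the libraries with the highest and lowest choroid plexus score of their group. At a Benjamini-Hochberg adjusted p under 0.05 in limma, 0 of 10 members were called, against 3.43% of the 46102 genes tested. Of these genes, 17476 averaged 0.5 RPKM or more, as all members did. A fit of genes at that level called 2180 genes and 0 members. Limma voom on the recovered reads also called 0 members. *Kcnj13* was the 1 member with an unadjusted p under 0.05 by either tool, and 14.9% of all genes had one in limma. Its difference was 0.37 (SE 0.15, 95% interval 0.03 to 0.70, limma adjusted p = 0.277), or a 1.29-fold higher level in MCAO. MCAO means were above CL means of *Kcnj13* in both genotypes (3.60 ± 1.08 against 2.65 ± 0.90 RPKM in *Cort*+/+, n = 3 each, and 3.62 ± 0.67 (n = 5) against 2.89 ± 0.19 RPKM (n = 3) in *Cort*-/-).

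The 9 other members had intervals that held 0. *Aqp1* differed by 0.39 (95% interval -0.11 to 0.89) and *Folr1* by 0.34 (-0.15 to 0.83) between MCAO and CL. *Kcne2* differed by 0.19 (-0.26 to 0.65), *Kl* by 0.10 (-0.27 to 0.48) and *Slc4a5* by 0.10 (-0.37 to 0.57). These estimates were positive and smaller than the uncertainty that the spread of the libraries left. *Ttr* differed by 0.02 (-0.27 to 0.31), so that a 1.24-fold higher level bounded its interval from above and a 0.831-fold level from below. *Clic6* (-0.05, -0.37 to 0.28), *Sostdc1* (-0.07, -0.60 to 0.45) and *Prlr* (-0.09, -0.38 to 0.19) had estimates below 0. Over all members, the intervals reached from a 0.660-fold level (*Sostdc1*) to a 1.85-fold level (*Aqp1*), and were narrower for *Ttr*, *Clic6* (0.771 to 1.21) and *Prlr* (0.770 to 1.14).

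Within each genotype the result was the same. In *Cort*+/+ mice, limma called 0 of 10 members against 0.0108% of all genes (5 genes). No member had an unadjusted p under 0.05 in limma or voom, against 7.87% of all genes in limma. Members' differences between MCAO and CL had a median of 0.10, from 0.01 (*Ttr*) to 0.44 (*Kcnj13*). That median depended on single CL libraries, being 0.43 without CL replicate 2 and -0.10 without CL replicate 3. In *Cort*-/- mice, limma called 0 of 10 members against 1.72% of all genes. No member had an unadjusted p under 0.05 in limma or voom, against 12.7% of all genes in limma. The median was 0.11, from -0.19 (*Prlr*) to 0.34 (*Aqp1*), and it was 0.02 without *Cort*-/- CL replicate 3 and 0.22 without *Cort*-/- MCAO replicate 5.

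**Figure D3:**
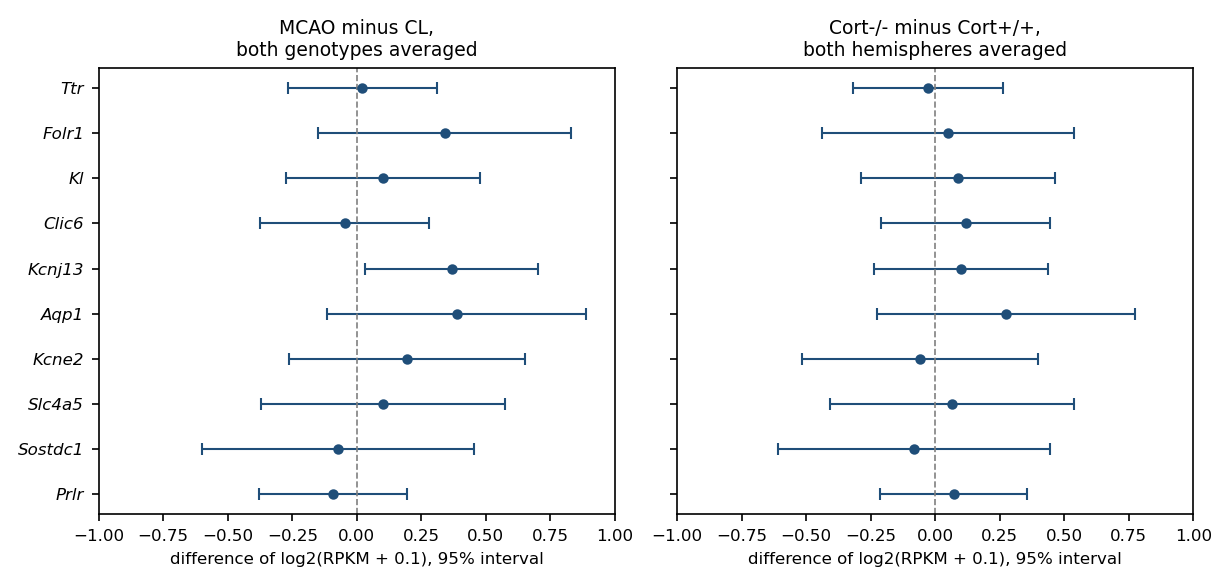
Difference of log2(RPKM + 0.1) between MCAO and CL hemispheres (left) and between *Cort*-/- and *Cort*+/+ mice (right) for each gene, with limma's 95% interval. The interval of 1 gene, *Kcnj13* in the left panel (0.03 to 0.70), lies above 0 before adjustment over all genes.

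The second comparison asks whether choroid plexus RNA follows genotype, and again no member passed the test. Over both hemispheres, limma called 0 of 10 members between *Cort*-/- and *Cort*+/+ mice, against 0.0672% of all genes. No member had an unadjusted p under 0.05 in limma or voom, against 4.5% of all genes in limma. The median difference was 0.07, and it was 0.20 without *Cort*+/+ CL replicate 2 and -0.07 without *Cort*+/+ CL replicate 3. *Aqp1* had the highest estimate, 0.27 (95% interval -0.23 to 0.78), and *Sostdc1* the lowest, -0.08 (-0.61 to 0.45). *Ttr* differed by -0.03 (-0.32 to 0.26), *Kcnj13* by 0.10 (-0.24 to 0.43) and *Folr1* by 0.05 (-0.44 to 0.54). The estimates of *Clic6* (0.12), *Kl* (0.09), *Prlr* (0.07), *Slc4a5* (0.06) and *Kcne2* (-0.06) were likewise within their intervals of 0.

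In CL hemispheres alone, limma called 0 of 10 members between genotypes against 0.0152% of all genes, and in MCAO hemispheres 0 of 10 against 0.0174%. No member had an unadjusted p under 0.05 in either comparison, in limma or voom, against 3.91% and 3.82% of all genes in limma. The median was 0.09 in CL hemispheres, and 0.39 and -0.13 without *Cort*+/+ CL replicates 2 and 3 in turn. It was 0.01 in MCAO hemispheres, and 0.24 and -0.15 without *Cort*+/+ MCAO replicates 2 and 3 in turn. The MCAO effect itself was compared between genotypes by the interaction term, for which limma called 0 of 10 members against 0.00217% of all genes (1 gene). No member had an unadjusted p under 0.05 in limma or voom, against 3.31% in limma. The median of the interaction over the 10 genes was -0.10, from -0.20 (*Prlr*) to 0.03 (*Kl*), and it was -0.37 and 0.20 without *Cort*+/+ CL replicates 2 and 3 in turn.

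Other genes of the choroid plexus followed the same libraries. Of 24 further genes known from this epithelium, limma called 0 in each of the 7 comparisons, with an unadjusted p under 0.05 for 4 of 24 in MCAO against CL over both genotypes (14.9% of all genes), for 3 of 24 in *Cort*-/- mice (12.7% of all genes) and for 0 in the 5 other comparisons. Their median differences were 0.08 for MCAO against CL and 0.03 for *Cort*-/- against *Cort*+/+. Across the 14 libraries, 23 of the 24 had a positive r with the mean of the 10 members, with a median of 0.61, against -0.0051 over the 15055 genes averaging 1 RPKM or more. Of the 4 most abundant, *Enpp2*, which encodes autotaxin and is also used by oligodendrocytes, had r = 0.92 and *Ecrg4*, a secreted peptide precursor, r = 0.69. *Htr2c*, a serotonin receptor that neurons also express, had r = -0.10 and *Cab39l* r = 0.08. The tight junction gene *Cldn2* (r = 0.95) and *Tmem72* (r = 0.94), chosen after their values were seen, had the highest r of the list at means of 0.713 and 0.296 RPKM.

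The 10 genes most like the mean of the members, among those of at least 1 RPKM, were *Enpp2* (r = 0.92), *F5* (0.91), *Drc7* (0.90), *Mir7677* (0.84), *Mpc2* (0.84), *Mfrp* (0.84), *Calml4* (0.80), *Mgat1* (0.80), *Ak7* (0.77) and *Recql* (0.76). The values of r are over the 14 libraries and carry no test. *Enpp2*, *F5* and *Calml4*, 3 of the 10, were on the list of 24. *F5* encodes coagulation factor V. *F5* was at 0.879, 1.58 and 0.480 RPKM in *Cort*+/+ CL replicates 1 to 3, and at 1.55, 0.719 and 0.939 RPKM in *Cort*+/+ MCAO replicates 2 to 4. The *Cort*-/- libraries were at 1.11, 1.08 and 0.711 RPKM in CL and at 1.37, 1.34, 1.27, 1.61 and 0.660 RPKM in MCAO replicates 1 to 5. *F5* thus had its lowest value in the library that was lowest for 9 members, but its highest in *Cort*-/- MCAO replicate 4, where the members' score was 0.05. *Drc7* and *Ak7* belong to motile cilia, with r = 0.90 and 0.77. *Mir7677* had as little as 1 read in a library and lies within *Itpr3*, and *Mfrp* shares 1607 exonic bases with *C1qtnf5* on its own strand. On the opposite strand, *Recql* shares 5007 exonic bases with *Pyroxd1* and *Mpc2* 994 with *Dcaf6*. The levels of these 4 genes are therefore uncertain.

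**Figure D4:**
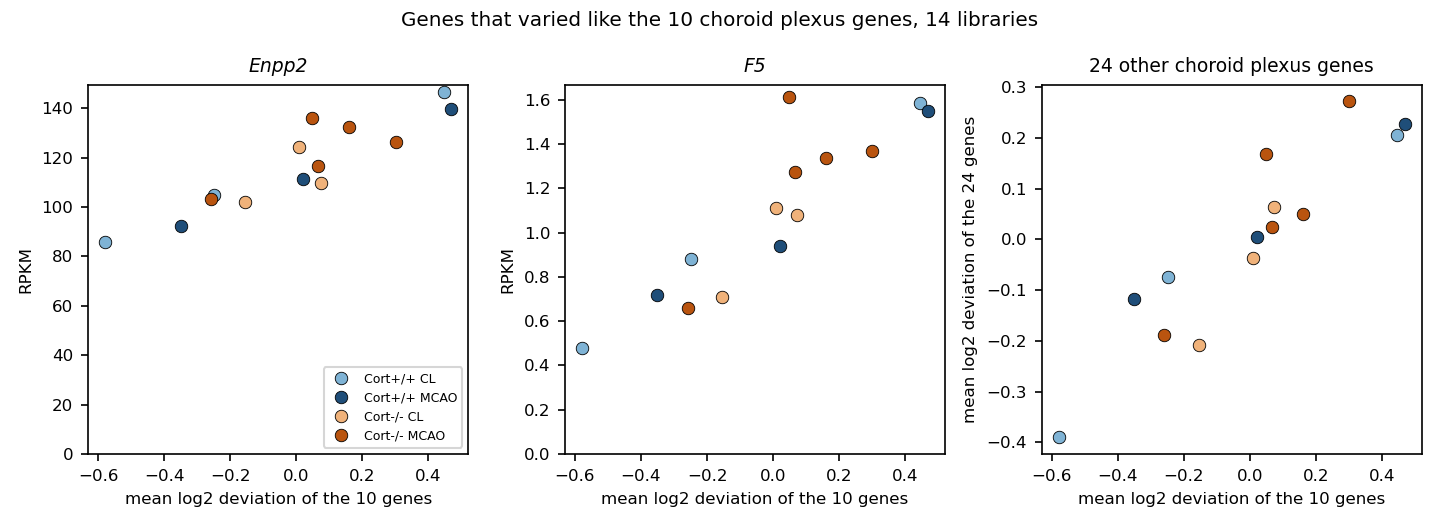
*Enpp2* and *F5* (RPKM) and the mean log2 deviation of 24 other choroid plexus genes against the mean log2 deviation of the 10 members, with 1 point per library coloured by group. Points of the 4 groups lie along the same course, with *Cort*+/+ CL replicate 3 lowest in each panel.

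Marker lists from other parts of the hemisphere were read in the same fit. Over both genotypes, limma called 6 of 6 injury response genes (such as *Gfap* and *Vim*) higher and 7 of 7 striatum genes (such as *Penk* and *Ppp1r1b*) lower in MCAO than in CL, against 3.43% of all genes. Their medians were 1.99 and -0.85. In *Cort*+/+ mice alone, 1 of 6 injury response genes and 0 of 7 striatum genes were called, against 0.0108% of all genes. In *Cort*-/- mice alone, 6 of 6 and 6 of 7 were called, against 1.72%. Over the 14 libraries the injury response list spanned a 13.3-fold range, the striatum list a 2.63-fold range and the choroid plexus genes a 2.07-fold range. Inside single groups the choroid plexus range was 2.03-fold in *Cort*+/+ CL, 1.76-fold in *Cort*+/+ MCAO, 1.17-fold in *Cort*-/- CL and 1.47-fold in *Cort*-/- MCAO. *Cort*-/- MCAO replicates 1 and 4 had the highest summed injury response (564 and 588 RPKM), and their choroid plexus scores were 0.30 and 0.05. *Cort*+/+ MCAO replicate 3, with 447 RPKM, had a score of -0.35, so that hemispheres with much injury response RNA lay on both sides of the mean.

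Lists of neighbouring tissue were examined because they could share a dissection with the choroid plexus. Of 11 ependyma genes (led by *Tppp3* and *Rarres2*), which mark the ciliated lining of the ventricles, limma called 0 in MCAO against CL, and their range over libraries was 1.44-fold. That range is of the mean log2 deviation of the list, which was lowest in *Cort*+/+ CL replicate 3 (-0.28). The next lowest was *Cort*-/- MCAO replicate 4 (-0.16), and *Cort*-/- CL replicate 1 was at -0.08. Their summed level, in which *Tppp3* weighs most, was 42.9 RPKM in *Cort*+/+ CL replicate 3, 41.7 RPKM in *Cort*-/- CL replicate 1 and up to 55.8 RPKM elsewhere. Over both genotypes, 3.43% of all genes were called in MCAO against CL. Of 13 genes of meninges and stroma (led by *Igfbp2* and *Igf2*), 3 were called higher in MCAO (*Dcn* by 0.53, *Igfbp2* by 0.64 and *Aldh1a2* by 0.54). Of 8 endothelium genes (led by *Cldn5* and *Ly6c1*), 2 were (*Cldn5* by 0.43 and *Cdh5* by 0.40). In *Cort*+/+ mice alone, 0 of 13 and 0 of 8 were called, against 0.0108% of all genes. In *Cort*-/- mice alone, 2 of 13 and 1 of 8 were called higher, against 1.72%. Over both genotypes, *Aqp1*, *Kcnj13* and *Folr1* had estimates of 0.39, 0.37 and 0.34 without passing the test, and the difference between lists was not tested. Limma called 0 genes of the lists for hippocampus (led by *Wfs1* and *Neurod6*), thalamus (*Prkcd*, *Slc17a6*), hypothalamus (*Pmch*, *Avp*), midbrain and hindbrain (*Th*, *Slc6a3*), neurons (*Snap25*, *Slc17a7*) and red blood cells in MCAO against CL over both genotypes. Cerebellum genes (*Barhl2*, *Cbln3*), of which 0 were called, summed to 0.51 to 1.95 RPKM, so RNA of the cerebellum was near absent. Summed neuron genes were highest (2211 RPKM) in *Cort*+/+ CL replicate 3, the library lowest in choroid plexus. The part of dissection in these levels was not tested.

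**Figure D5:**
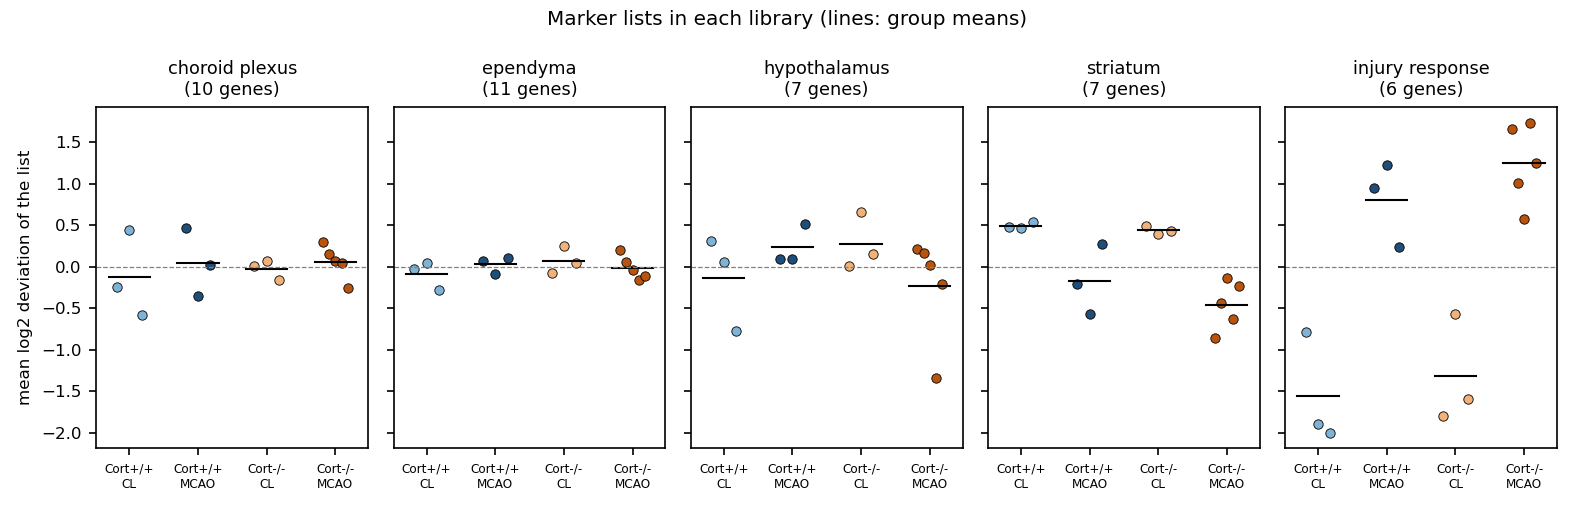
Mean log2 deviation of 5 marker lists in each library by group, with lines for group means. Striatum and injury response libraries separate by hemisphere in both genotypes, whereas the choroid plexus libraries overlap in all groups, from -0.58 to 0.47.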

How the data were processed

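The authors aligned the reads to GRCm39 with reanalyzerGSE v3.0.0 and deposited RPKM values of 46904 genes for each of 14 libraries, and the study's methods name GENCODE M28. Whole reads were recovered from the RPKM for 495656 of 495656 values above 0 (tolerance 0.005). Genes above 0 in at least 2 libraries (46102) were fitted as log2(RPKM + 0.1) with limma 3.58.1 (R 4.3.3), in 1 model of the 4 groups, with Benjamini-Hochberg adjustment over all genes. The study's methods name edgeR on counts, which was not run here: the deposited unit is RPKM, so the fit was made on the log scale, and limma voom was run on the recovered reads. Fold changes on this scale understate changes of low genes. Named genes are the members, the 4 most abundant of 24 other choroid plexus genes, the 10 genes of at least 1 RPKM with the highest r with the members' mean, and the 2 most abundant genes of each other list. *Oxt*, *Dcn*, *Aldh1a2*, *Cdh5*, *Cldn2* and *Tmem72* fall outside this rule and were named after their values were seen. Members and lists were chosen with earlier results of these data known. Positions are from GENCODE M39. Limma voom was added after the data were seen, and its effect and that of other settings are given at the end. P-values set a difference between groups against the spread of libraries within groups, with variances moderated over all genes. They treat the libraries as independent, although some CL and MCAO hemispheres may be of the same mouse. Steps were tested on simulated data. Python 3.11.15 with pandas 2.3.3 was used.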

Additional observations from a re-analysis of the deposited data

How the results depend on the processing

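No member was called under any of the 193 recomputed counts (14 settings with 1 library left out, 14 others, limma or limma voom), and the lowest adjusted p of any was 0.0851, for *Kcnj13* in MCAO against CL over both genotypes without *Cort*+/+ CL replicate 2. With 3 to 5 libraries per group and this spread, several small estimates changed sign.

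Over all genes, counts of calls depended on the setting. MCAO against CL gave 5 calls in *Cort*+/+ mice (0 to 160 over the settings), 792 in *Cort*-/- mice (0 to 1366) and 1579 over both (238 to 2316). Genotype gave 7 in CL (4 to 90), 8 in MCAO (4 to 40) and 31 over both hemispheres (8 to 49), and the interaction 1 (0 to 16). Limma voom on the recovered reads, added after seeing the data, called 57, 1294 and 2145 genes for MCAO against CL in the 3 comparisons.

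The range of the library score was 1.05 and moved to 0.69 with a pseudocount of 1, and it was 0.82 to 1.05 with 1 library left out. The members' median for MCAO against CL in *Cort*+/+ mice ran from -0.10 to 0.43 with 1 library left out. The medians ran from 0.02 to 0.22 in *Cort*-/- mice, from -0.04 to 0.27 over both genotypes and from -0.07 to 0.20 for genotype over both hemispheres. Of the 10 most alike genes, 7 stayed with deviations from group means and 7 with Spearman's rho.

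Leaving out 1 library turned these differences between MCAO and CL over both genotypes in sign: *Ttr* (-0.064 to 0.086), *Kl* (-0.075 to 0.26), *Clic6* (-0.18 to 0.050), *Slc4a5* (-0.021 to 0.27), *Sostdc1* (-0.24 to 0.13) and *Prlr* (-0.17 to 0.014). For genotype over both hemispheres these were *Ttr* (-0.11 to 0.034), *Folr1* (-0.10 to 0.18), *Kl* (-0.088 to 0.25), *Clic6* (-0.017 to 0.22), *Kcne2* (-0.19 to 0.12), *Slc4a5* (-0.057 to 0.24), *Sostdc1* (-0.25 to 0.12) and *Prlr* (-0.0032 to 0.18). Other members kept their sign but not their size with 1 library left out. For MCAO against CL over both genotypes these were *Aqp1* (0.22 to 0.61), *Folr1* (0.19 to 0.49), *Kcnj13* (0.26 to 0.50) and *Kcne2* (0.044 to 0.38). For genotype over both hemispheres they were *Aqp1* (0.13 to 0.50) and *Kcnj13* (0.0017 to 0.23). The genotype difference of *Ttr* turned to 0.030 with equal totals per library and to 0.039 with quantile normalization, and the cause was not tested.

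The labels do not say that a replicate number marks 1 mouse, and over all genes averaging 1 RPKM or more the deviations of same-numbered CL and MCAO libraries correlated with r over 0.1 in 1 of 5 pairs (-0.24 to 0.32), so they were not treated as paired. The choroid plexus score was higher in MCAO than in CL in 5 of 5 such pairs, by 0.02 and 0.23 in *Cort*+/+ replicates 2 and 3 and by 0.29, 0.09 and 0.22 in *Cort*-/- replicates 1 to 3. Both *Cort*+/+ libraries numbered 2 had the highest score of their group and both numbered 3 the lowest. With a replicate block of number within genotype, 1552 genes were called for MCAO against CL over both genotypes. With the number as a fixed term in the block, 238 were called. This fixed term was shared by both genotypes, so it joined libraries of different mice under each number. Changes under it are therefore not the effect of pairing the hemispheres of a mouse. With the latter block *Clic6* turned to 0.011 and *Sostdc1* to 0.013 in that comparison, and no member was called in either. That block moved the members' median for MCAO against CL from 0.10 to 0.18 over both genotypes, from 0.11 to 0.23 in *Cort*-/- mice and from 0.10 to 0.13 in *Cort*+/+ mice. The same block turned the members' median of the interaction from -0.10 to 0.03.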
